A study of Mus musculus with 48 samples.

Results

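Of the 48795 genes in the count table, 9 genes of the choroid plexus were followed through RNA-seq libraries of dissected mouse striatum. They are Ttr, Sostdc1, Slc4a5, Aqp1, Folr1, Kl, Prlr, Mfrp and Tmem72. The genes were picked by symbol as choroid plexus genes and were chosen by their read counts in these same libraries, which were already known, so that their levels library by library are a description and the group tests on them are shown for what they returned and support nothing further. All 9 had enough reads to be tested, with at least 10 counts in 24 (Slc4a5) to 48 libraries (Ttr, Kl and Prlr). Each library is named by its group, a letter for sex and a number.

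The corpus striatum was taken from C57BL/6 mice aged 6 months, and 48 libraries were labelled with 6 genotypes. There were 7 libraries labelled wild type and 9 labelled Msh3+/-, and 8 in each of the groups labelled Q140, Msh3-/-, Q140 Msh3+/- and Q140 Msh3-/-. Mice labelled Q140 carry 1 Htt allele with a long CAG repeat knocked in and serve as a model of Huntington's disease. The Msh3 protein takes part in mismatch repair and promotes the growth of such repeats in somatic cells. All groups shared age, strain and tissue, no agent was given according to the labels, and every group held females and males. No label says that each library came from a separate mouse, so p-values measure the spread between these libraries, which may in part be technical. Totals ran from 33.7 to 52.8 M counts, with a median of 45.1 M, and 19975 genes were tested. Msh3 reads followed the genotype label in 3 levels that did not overlap, but upward: 29.1 to 33.2 CPM (read counts scaled to library size, comparable between libraries) in libraries labelled with no Msh3 mutation, 68.2 to 85.4 CPM in those labelled Msh3+/- and 111 to 135.5 CPM in those labelled Msh3-/-. The group names below are those labels.

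The choroid plexus is a sheet of secretory epithelium on a vascular core that hangs in each brain ventricle and makes cerebrospinal fluid. Its cells pump sodium, chloride, bicarbonate and water into the ventricle, carry folate and hormones from blood to fluid, and secrete carrier proteins, transthyretin above all. In the forebrain it lies in the lateral ventricle, whose outer wall is the striatum, with a lining of ciliated ependyma and the subventricular zone between them. A dissection of the striatum therefore runs along a ventricle that holds it.

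Upstream sequence of 3 of the genes is shown because the genes moved together across libraries, and these 3 lie on different chromosomes. The RefSeq promoter table on GRCm38.p6 held 6 of the 9 genes. Its 250 bases before the transcription start were read 5′ to 3′ on the plus strand for Mfrp (chr9:44101520-44101728, the 209 bases before the first annotated exon), Kl (chr5:150952357-150952606) and Aqp1 (chr6:55336049-55336298). Capitals mark TAATCC or its reverse complement GGATTA, the core motif bound by OTX2, a homeodomain factor of choroid plexus epithelium.
Mfrp: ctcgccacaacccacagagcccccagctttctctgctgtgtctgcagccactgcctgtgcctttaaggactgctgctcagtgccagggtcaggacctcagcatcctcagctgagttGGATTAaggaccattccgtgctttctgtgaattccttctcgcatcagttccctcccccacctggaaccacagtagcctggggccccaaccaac
Kl: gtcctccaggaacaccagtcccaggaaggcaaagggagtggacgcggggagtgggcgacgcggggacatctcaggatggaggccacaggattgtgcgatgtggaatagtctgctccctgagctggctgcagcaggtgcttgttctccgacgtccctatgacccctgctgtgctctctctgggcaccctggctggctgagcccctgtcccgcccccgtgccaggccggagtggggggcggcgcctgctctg
Aqp1: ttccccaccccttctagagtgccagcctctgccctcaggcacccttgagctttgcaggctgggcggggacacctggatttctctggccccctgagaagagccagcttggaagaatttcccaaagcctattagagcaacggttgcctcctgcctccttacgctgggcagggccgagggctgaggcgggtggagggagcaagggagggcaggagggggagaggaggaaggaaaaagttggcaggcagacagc
The motif was searched on both strands in the 250 bases before each start. It was present in 1 of the 6 genes, Mfrp, beginning 134 bases before the RefSeq start, and in 6.25% of the 32851 promoters in the table. For Mfrp that start lies downstream of the stretch shown, which ends just before the GENCODE gene start at 44101729. The 134 bases are thus not counted from the last base shown. A match of 6 letters is a description of sequence and not a binding site.

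A set of 3 libraries stood apart from the other 45, namely Q140 Msh3+/- F1, wild type M2 and wild type M1. For each of the 9 genes they were the 3 highest of the 48 libraries, and in the same order in 9 of 9. Together the 9 genes took 0.440% of all counts in Q140 Msh3+/- F1, 0.0619% in wild type M2 and 0.0238% in wild type M1, against a median of 0.00174% in the other 45. The remaining libraries of those 2 genotypes lay among the 45. Of the 7 wild type libraries 5 were thus among the 45, and of the 8 Q140 Msh3+/- libraries 7.

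**Figure D1:**
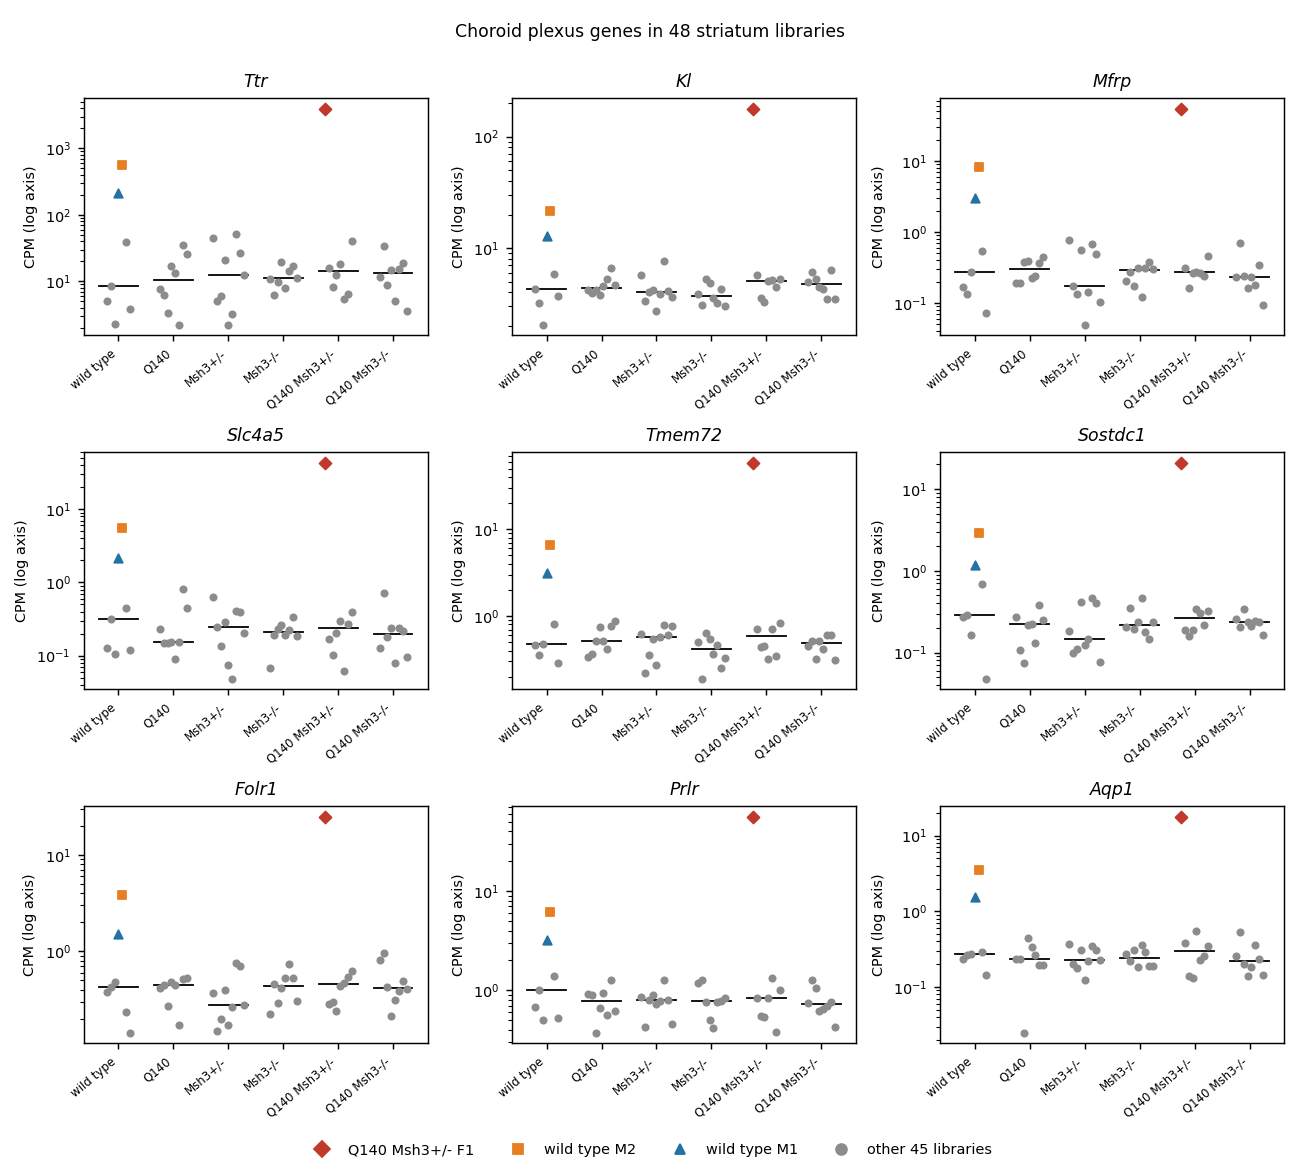
Level of each of the 9 genes (vertical log axis, CPM) in the 48 libraries, grouped by genotype on the horizontal axis; points are libraries and bars are group medians. Q140 Msh3+/- F1, wild type M2 and wild type M1 lie above the other 45 libraries in every panel, Ttr reading 3952, 562 and 217 CPM against at most 52.0 CPM.

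Ttr encodes transthyretin, the carrier of thyroid hormone and of retinol-binding protein that the choroid plexus secretes (chr18:20665280-20674321, GRCm38). Ttr stood at 3952 CPM in Q140 Msh3+/- F1, 562 CPM in wild type M2 and 217 CPM in wild type M1, from 185828, 26876 and 10257 counts. In the other 45 libraries it ran from 2.23 to 52.0 CPM with a median of 11.2 CPM, so that the lowest of the 3 was 4.17 times the highest of the 45. The counts behind those 45 values ran from 90 to 2564, and the highest CPM was 23.3 times the lowest. On the scale per transcript length (FPKM), Ttr was also the highest of the 9 genes, with a median over 48 libraries of 9.83 FPKM against 0.458 for Kl, the next, and 0.0288 for Tmem72, the lowest.

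By group, Ttr ran from 2.26 through a median of 8.42 to 562 CPM in wild type, and from 2.24 through 10.52 to 34.9 CPM in Q140. It ran from 2.23 through 12.5 to 52.0 CPM in Msh3+/-, and from 6.30 through 11.1 to 19.6 CPM in Msh3-/-. It ran from 5.46 through 14.1 to 3952 CPM in Q140 Msh3+/- and from 3.59 through 13.3 to 33.8 CPM in Q140 Msh3-/-. The ranges of all 6 groups overlapped, and the medians lay close together while the means did not: 119.5 ± 209.8 CPM (SD, n = 7) in wild type and 507 ± 1392 CPM (SD, n = 8) in Q140 Msh3+/-, against 12.2 to 19.2 CPM in the other 4 groups. Without the 3 libraries the means were 11.6 ± 15.3 CPM (SD, n = 5) in wild type and 15.3 ± 12.3 CPM (SD, n = 7) in Q140 Msh3+/-. The order of the medians was then wild type at 5.0 CPM, Q140, Msh3-/-, Msh3+/- and Q140 Msh3+/- (both 12.5 CPM) and Q140 Msh3-/- at 13.3 CPM, and no neighbours in it differed by more than their SD.

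Sostdc1, the other secreted product among the genes, is an inhibitor of BMP and Wnt signalling (chr12:36314139-36318452). Sostdc1 read 21.0 CPM in Q140 Msh3+/- F1, 2.90 CPM in wild type M2 and 1.16 CPM in wild type M1, against 0.0480 to 0.691 CPM (median 0.220) in the other 45. Its counts in those 45 libraries were only 2 to 29, a range in which counting error is a large part of each value.

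Slc4a5, Aqp1 and Folr1 encode transport proteins of the epithelium. Slc4a5, a sodium bicarbonate cotransporter of its ventricular face (chr6:83219828-83304945), read 43.2 CPM in Q140 Msh3+/- F1, 5.47 CPM in wild type M2 and 2.16 CPM in wild type M1, against 0.0484 to 0.814 CPM (median 0.204). Aqp1, the water channel of the same membrane (chr6:55336432-55348555), read 17.7, 3.51 and 1.57 CPM in the 3 libraries, against 0.0249 to 0.552 CPM (median 0.237). Folr1, the folate receptor that takes folate into cerebrospinal fluid (chr7:101858331-101870788), read 24.8, 3.85 and 1.52 CPM, against 0.144 to 0.969 CPM (median 0.419). All 3 were near the floor of detection outside the 3 libraries, with 1 to 43 counts a library.

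The receptors Kl and Prlr had more reads elsewhere. Kl encodes Klotho, the co-receptor for the hormone Fgf23 (chr5:150952607-150993817), and read 178 CPM in Q140 Msh3+/- F1, 21.3 CPM in wild type M2 and 12.8 CPM in wild type M1, against 2.05 to 7.64 CPM (median 4.22). Kl had 99 to 377 counts in those 45 libraries, and its highest library was 41.6 times its median over all 48, the smallest such ratio of the 9 genes beside 328.5 for Ttr. Prlr, the receptor for the pituitary hormone prolactin (chr15:10177238-10349180), read 56.1, 6.12 and 3.19 CPM, against 0.373 to 1.41 CPM (median 0.760).

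Mfrp and Tmem72 encode membrane proteins. Mfrp, a frizzled-related protein also known from the pigment epithelium of the eye (chr9:44101729-44109187), read 54.3 CPM in Q140 Msh3+/- F1, 8.21 CPM in wild type M2 and 2.98 CPM in wild type M1, against 0.0496 to 0.764 CPM (median 0.242). Of its exonic bases, 36.7% are shared on the same strand with C1qtnf5, which was listed at 0 counts in 48 of 48 libraries, so reads in the shared exons cannot be told apart between the pair, and how they were counted is not given in the sources used here. Tmem72 (chr6:116679063-116716913) read 58.3, 6.60 and 3.17 CPM, against 0.190 to 0.877 CPM (median 0.477).

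Expressed per 1000 Ttr reads, the other 8 genes kept nearly one composition in the 3 libraries although Ttr itself spanned 217 to 3952 CPM. Mfrp came to 13.7, 14.6 and 13.7 reads in wild type M1, wild type M2 and Q140 Msh3+/- F1, and Sostdc1 to 5.36, 5.17 and 5.31. Slc4a5 came to 9.94, 9.75 and 10.9, and Folr1 to 7.02, 6.85 and 6.28. Tmem72 came to 14.6, 11.8 and 14.7, Prlr to 14.7, 10.9 and 14.2, and Aqp1 to 7.21, 6.25 and 4.49, the widest of these ranges. Kl came to 59.1, 38.0 and 45.1.

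The same ratios were higher in the other 45 libraries, with medians of 20.7 for Mfrp, 16.6 for Slc4a5, 64.7 for Prlr and 362 for Kl. A straight line through the 45 libraries met zero Ttr at 3.47 CPM of Kl, close to its median of 4.22 CPM, and at 0.121 CPM of Mfrp, 0.0804 CPM of Slc4a5 and 0.625 CPM of Prlr. After the median of the 45 libraries was taken off each gene, the ratio of the highest to the lowest library among the 3 was 1.09 for Mfrp, 1.15 for Slc4a5 and Sostdc1, and at most 1.45 (Aqp1). Most of the Kl level in the 45 libraries was thus present where the line put Ttr at zero. The same held for Prlr (median 0.760 CPM) and for Aqp1, at 0.199 CPM against a median of 0.237 CPM. It also held for Tmem72 (0.364 against 0.477), Folr1 (0.313 against 0.419) and Sostdc1 (0.161 against 0.220). For Mfrp and Slc4a5 the level at zero Ttr was a smaller part of their medians of 0.242 and 0.204 CPM. In bulk tissue, fewer cells of a type and less RNA per cell cannot be told apart.

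**Figure D2:**
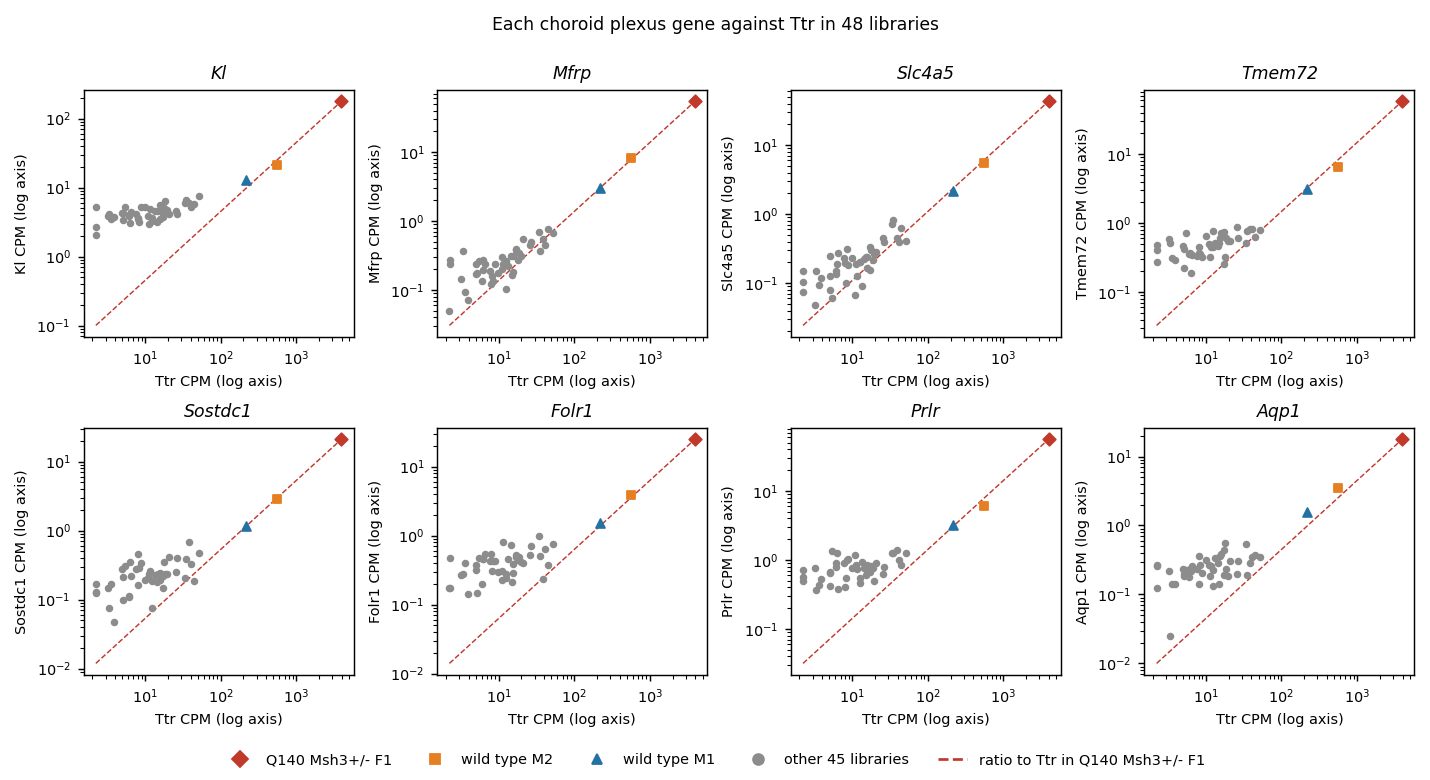
Level of 8 genes against Ttr (both log axes, CPM), 1 point for each of 48 libraries; the dashed line has the ratio to Ttr seen in Q140 Msh3+/- F1. The 3 highest libraries lie near the line, and most of the other 45 lie above it, most clearly for Kl, whose points level off near 4.22 CPM.

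Pairwise correlations of log2 CPM describe how closely the genes moved together. Across all 48 libraries Pearson's r of the 36 pairs ran from 0.837 to 0.925 with a median of 0.875. Without the 3 libraries the median fell to 0.467 (0.225 to 0.772, 45 libraries), with a median Spearman's rho of 0.402. The rho of the 36 pairs ran from 0.204 to 0.770. Ttr with Slc4a5 (r = 0.77) and Ttr with Mfrp (r = 0.72) were the closest pairs among the 45, and Tmem72 with Prlr (r = 0.23) the loosest. These points share library, depth and scaling, and the mean of the 9 genes had r = 0.193 with the log2 of total counts over the 45 libraries.

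Within genotypes the pattern was uneven. The median rho over pairs was 0.786 in wild type (7 libraries), 0.758 in Msh3+/- (9) and 0.643 in Q140 Msh3+/- (8). It was 0.452 in Q140 Msh3-/- (8) and 0.310 in Q140 (8). The wild type and Q140 Msh3+/- values include the 3 highest libraries, and values within those groups without them were not computed. In Msh3-/- it was -0.0714 (8 libraries), and 17 of 36 pairs were above 0. Msh3-/- was also the group with the narrowest range of Ttr, 6.30 to 19.6 CPM. Over 48 libraries, group and sex together took 7.95% (Ttr) to 13.4% (Tmem72) of the variance of each of the 9 genes. The median gene tested had 19.0%. Without the 3 libraries the share of the 9 ran from 0.254% (Prlr) to 16.4% (Kl). The SD of log2 CPM without them was 1.199 for Ttr and 0.365 (Kl) to 0.749 (Slc4a5) for the other members, against 0.163 for the median gene. Counting error adds to the SD of the genes with few reads.

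**Figure D3:**
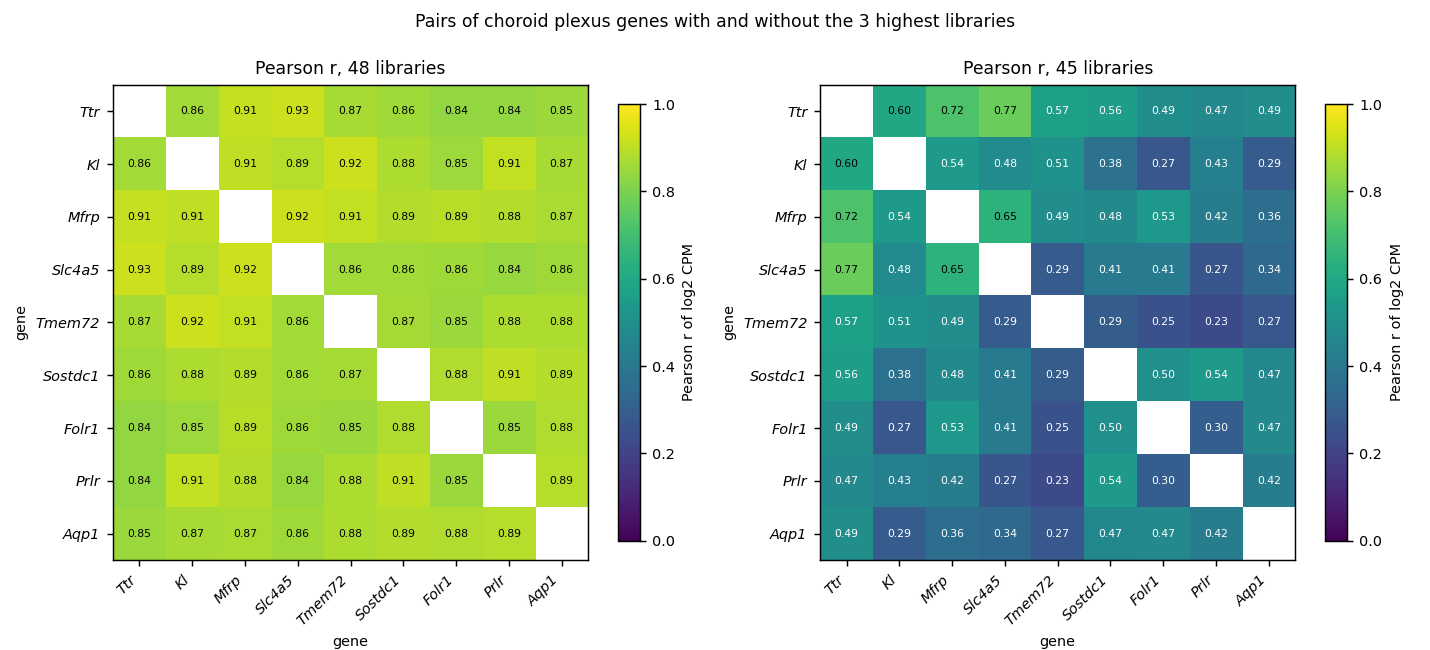
Pearson's r of log2 CPM for the 36 pairs of genes, in 48 libraries on the left and in 45 libraries without the 3 highest on the right; colour runs from 0 to 1. The median pair goes from 0.875 to 0.467.

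Outside the 9, the 12 genes most like their mean (Pearson's r of log2 CPM after group and sex were taken out, 48 libraries, average log2 CPM of at least 0) were F5, Igfbp2, Col8a1, Igf2, Slc2a12, Enpp2, Rdh5, Sgms2, Trpv4, Abca4, Clic6 and Col9a3, with r from 0.831 to 0.946. F5, coagulation factor V, read 115 CPM in Q140 Msh3+/- F1, 12.3 CPM in wild type M2 and 5.41 CPM in wild type M1, against 0.720 to 3.40 CPM in the other 45. Igf2, a growth factor made by choroid plexus and meninges, read 236, 46.6 and 40.8 CPM, against 16.6 to 34.2 CPM. The 3 least like it were Mrps18b (r = -0.56), Blnk (r = -0.56) and Ifnar1 (r = -0.54). By the same measure without the 3 libraries, r ran from 0.18 (Abca4) to 0.72 (F5) among the 12, with Igfbp2 (0.62) and Igf2 (0.51) also above 0.5.

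Of 25 further choroid plexus genes not among the 9, 21 were tested. Q140 Msh3+/- F1 was the highest of 48 libraries in 20 of them, and the 3 libraries were the 3 highest in 9. Kcnj13, a potassium channel of the epithelium, read 32.0 CPM in Q140 Msh3+/- F1, 4.64 CPM in wild type M2 and 1.82 CPM in wild type M1, against a median of 0.0861 CPM. Otx2 read 15.8, 2.09 and 0.803 CPM, against a median of 0.380 CPM and a highest value of 0.897 CPM, so that wild type M1 lay within the range of the other 45. The mean log2 CPM of the 21 genes followed that of the 9 with rho = 0.799 over the 45 libraries and in the same direction in 6 of 6 groups. The exception was Car12, a carbonic anhydrase with a median of 60.4 CPM in the other 45 libraries, which read 96.2 CPM in Q140 Msh3+/- F1 and more than that in another library.

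Markers of the other tissues next to the striatum moved less with the 9 genes. Mean log2 CPM of 15 ependyma genes had rho = 0.277 with the mean of the 9 over 45 libraries, that of 12 leptomeninges genes 0.368, and that of 8 subventricular zone genes 0.215. For 8 thalamus and habenula genes rho was 0.301, for 7 septum and pallidum genes 0.111, for 7 hippocampus genes -0.0225, for 11 cortex genes -0.0381 and for 5 blood genes -0.142. The 15 genes of medium spiny neurons, the main neurons of the striatum, had rho = -0.0887. The levels of that list in the 3 libraries, 9.66, 9.79 and 9.94, lay within the 9.09 to 10.1 of the other 45.

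The 3 libraries did not share the markers of the other tissues. Q140 Msh3+/- F1 ranked first of 48 in the ependyma, leptomeninges and hippocampus means. Its values were 1.92, 2.4 and 0.934, against at most 1.73, 2.07 and 0.896 in the other 45. These leads were narrow and can rest on single genes. The leptomeninges list holds Igf2, at 236 CPM in this library against 16.6 to 34.2 CPM in the other 45. The hippocampus list holds Dsp, whose value in Q140 Msh3+/- against Q140 went from 0.35 to -0.61 without the 3 libraries. The part of single genes in these ranks was not tested. Q140 Msh3+/- F1 was the highest library for 8 of the 15 ependyma genes. Wild type M2 ranked 9, 10 and 9 in those means. Wild type M1 ranked 44 in ependyma and 48 in subventricular zone, with the ependyma genes Ccdc153 and Tmem212 at 0 counts, while each of the 9 choroid plexus genes was above the other 45 libraries in it. No ependyma gene had the 3 libraries as its 3 highest. The part of each of these tissues in the group comparisons that follow was not tested beyond the fits named there.

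**Figure D4:**
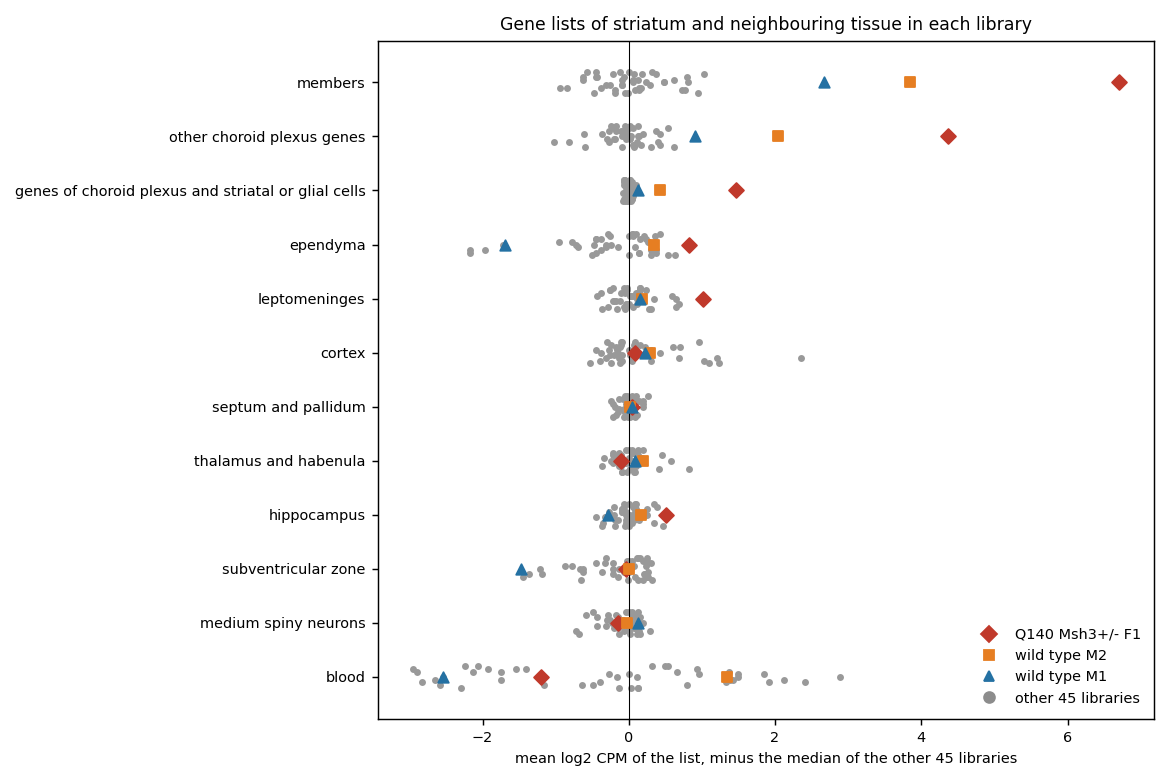
Mean log2 CPM of each gene list minus the median of the 45 other libraries (horizontal axis, log2 units); grey points are those 45 libraries and coloured symbols the 3 highest in the 9 genes. The 3 are far to the right for the 9 genes (row "members"). For the other choroid plexus genes, Q140 Msh3+/- F1 and wild type M2 are far to the right. Wild type M1 lies just beyond the grey points in that row (0.756 against at most 0.479 before the median is taken off). All 3 are within or near the grey points for medium spiny neurons, cortex, septum and thalamus.

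In the group comparisons, 2 of the 3 libraries belong to wild type and 1 to Q140 Msh3+/-. Log2 fold changes come from edgeR's quasi-likelihood test over all 48 libraries with sex as a covariate, with p-values adjusted by Benjamini-Hochberg over all 19975 genes, and "called" means an adjusted p under 0.05. A total of 3 comparisons share the wild type libraries, 2 share the Q140 Msh3+/- libraries, and Q140 is the control of 2 and the test group of 1, so that their values are not independent of each other and are set side by side only.

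Between Q140 Msh3+/- and Q140, libraries so labelled, all 9 genes were called higher in Q140 Msh3+/-, where 1.98% of all genes were called. Ttr differed by 5.22 on the log2 scale (SE 1.32, adjusted p = 0.0299), Mfrp by 4.27 (SE 1.1, adjusted p = 0.0319) and Kl by 2.38 (SE 0.64, adjusted p = 0.0398). The median of the 9 was 3.56, with adjusted p from 0.0268 (Sostdc1) to 0.0418 (Slc4a5), against a median of -0.01 over all genes. For Ttr, Q140 Msh3+/- F1 (3952 CPM) and the next library (41.0 CPM) lay above the highest Q140 library (34.9 CPM), and the other 6 lay within the range of Q140. For each of the 9 genes, 1 to 3 of the 8 Q140 Msh3+/- libraries were above that range. Without Q140 Msh3+/- F1, none of the 9 was called or close to it (lowest adjusted p = 0.857), Ttr differed by 0.14 and the median of the 9 was -0.04. The calls were also lost without Q140 F1, F2 or M1, where the values stayed (Ttr 5.10, 5.07 and 5.22) and the lowest adjusted p were 0.0688, 0.0734 and 0.0641, and 2 were left without Q140 F4. None was called either with plate column (Ttr 2.703, median 1.46) or plate row (2.18, median 1.96) as a term, with the compared groups alone (Ttr 3.37, 8 genes tested) or by limma on log2(FPKM + 0.1), where 2 of the 9 passed the filter (Ttr 1.35). DESeq2 called all 9 (lowest adjusted p = 4.28e-05) and 3.25% of all genes. All 9 stayed called with RLE scaling, without the robust step and without the sex term, where 1.96%, 2.1% and 1.78% of all genes were called.

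Between Q140 Msh3+/- and Msh3+/-, all 9 genes were again called higher, where 6.45% of all genes were called. Ttr differed by 4.74 (SE 1.21, adjusted p = 0.011), Slc4a5 by 4.16 (SE 1.03, adjusted p = 0.00894) and Tmem72 by 3.72 (SE 0.87, adjusted p = 0.00539). The median of the 9 was 3.47. Without Q140 Msh3+/- F1 none was called (lowest adjusted p = 0.771), and Ttr differed by -0.45. For Ttr, 1 of the 8 Q140 Msh3+/- libraries lay above the range of Msh3+/-. In the 47 other fits that left out 1 library, all 9 stayed called. None was called with the compared groups alone (Ttr 3.35), plate column (2.47), plate row (2.37) or the ependyma mean (3.42) as a term, or by limma on log2(FPKM + 0.1), where 2 of the 9 passed the filter (Ttr 1.15). DESeq2 called all 9 (lowest adjusted p = 1.01e-05) and 7.46% of all genes. All 9 stayed called with RLE scaling, without the robust step and without the sex term, where 6.34%, 6.6% and 6.07% of all genes were called.

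Against wild type, the 9 genes were lower in the fits of Q140, Msh3+/- and Msh3-/-, without passing the threshold in edgeR. None of the 9 was called in Q140 against wild type, where 19.9% of all genes were called. In edgeR, 5 of the 9 had an unadjusted p under 0.05, as had 6365 of the 19975 genes tested. DESeq2 called 3 of the 9 lower, and 21% of all genes. Ttr differed by -3.09 (SE 1.2, adjusted p = 0.0621), the median of the 9 was -2.01, and 9 of 9 were below 0. None was called in Msh3+/- against wild type (0.0100% of all genes called) by edgeR or DESeq2. There edgeR gave 6 of the 9 an unadjusted p under 0.05, as it did 943 of the 19975 genes tested. The median was -1.91, with Ttr at -2.60 (SE 1.15, adjusted p = 0.988). None was called in Msh3-/- against wild type (0.0300% of all genes called) by either tool. There edgeR gave 5 of the 9 an unadjusted p under 0.05, as it did 807 of the 19975 genes tested. The median was -1.958, with Ttr at -3.27 (SE 1.24, adjusted p = 1).

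Those 3 negative medians come with wild type M1 and M2 in the shared control. When both were left out, the median of the 9 genes was 0.32 in Q140, 0.24 in Msh3+/- and 0.06 in Msh3-/- against the 5 wild type libraries left, and none was called. Leaving out Q140 Msh3+/- F1 instead, a library that is in neither group, gave 8 of 9 genes called lower in Q140 than in wild type, where 20.4% of all genes were called (lowest adjusted p = 0.00221, Ttr -2.81). Wild type M1 and M2 were in that fit. Leaving out wild type F1, F2 or F3 gave 1, 2 and 1 of the 9 called lower, with 18.5%, 19.4% and 17.5% of all genes called.

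Where no group held any of the 3 libraries, the 9 genes did not differ detectably. In Q140 Msh3-/- against Q140, with 11.9% of all genes called, none of the 9 was called and none had an unadjusted p under 0.05 in edgeR, and DESeq2 called 0. The median was 0.03 and the values ran from -0.31 (Tmem72) to 0.27 (Folr1). The direction turned with the plate term: the median was -0.92 with 0 of 9 above 0 under plate column and 0.27 with 9 of 9 above 0 under plate row, with none called. In Q140 Msh3-/- against Msh3-/-, with 0.0751% of all genes called, none was called or under an unadjusted p of 0.05 in edgeR, DESeq2 called 0 but gave no adjusted p for 2 of the 9, and the median was 0.11. The 95% intervals of the Ttr difference were -2.28 to 2.33 and -2.10 to 2.52 on the log2 scale. They use a normal approximation and an SE taken from the fold change and its test statistic. The intervals give a range of differences around each estimate, without adjustment for the number of genes, and are not a limit of detection. The fits share 1 estimate of spread over all groups, and without the 3 libraries the SE of Ttr went from 1.18 to 0.593 in both comparisons.

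The interaction of Q140 with Msh3+/-, the difference between the Q140 effect with and without the Msh3+/- genotype, involves all 3 high libraries. None of the 9 was called by edgeR. All 9 had an unadjusted p under 0.05 in edgeR, as had 1621 of the 19975 genes tested. DESeq2 called 9 of the 9 and 0.0951% of all genes. The edgeR median was 5.42, with Ttr at 7.82 (SE 1.65, adjusted p = 0.113). No gene of the 19975 was called by edgeR in this interaction. For the interaction with Msh3-/-, where 2.39% of all genes were called, none of the 9 was called by edgeR or had an unadjusted p under 0.05 in it, DESeq2 called 0 but gave no adjusted p for 4 of the 9, and the median was 1.93. Without the 3 libraries the medians were -0.20 and 0.00, and none was called in either.

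**Figure D5:**
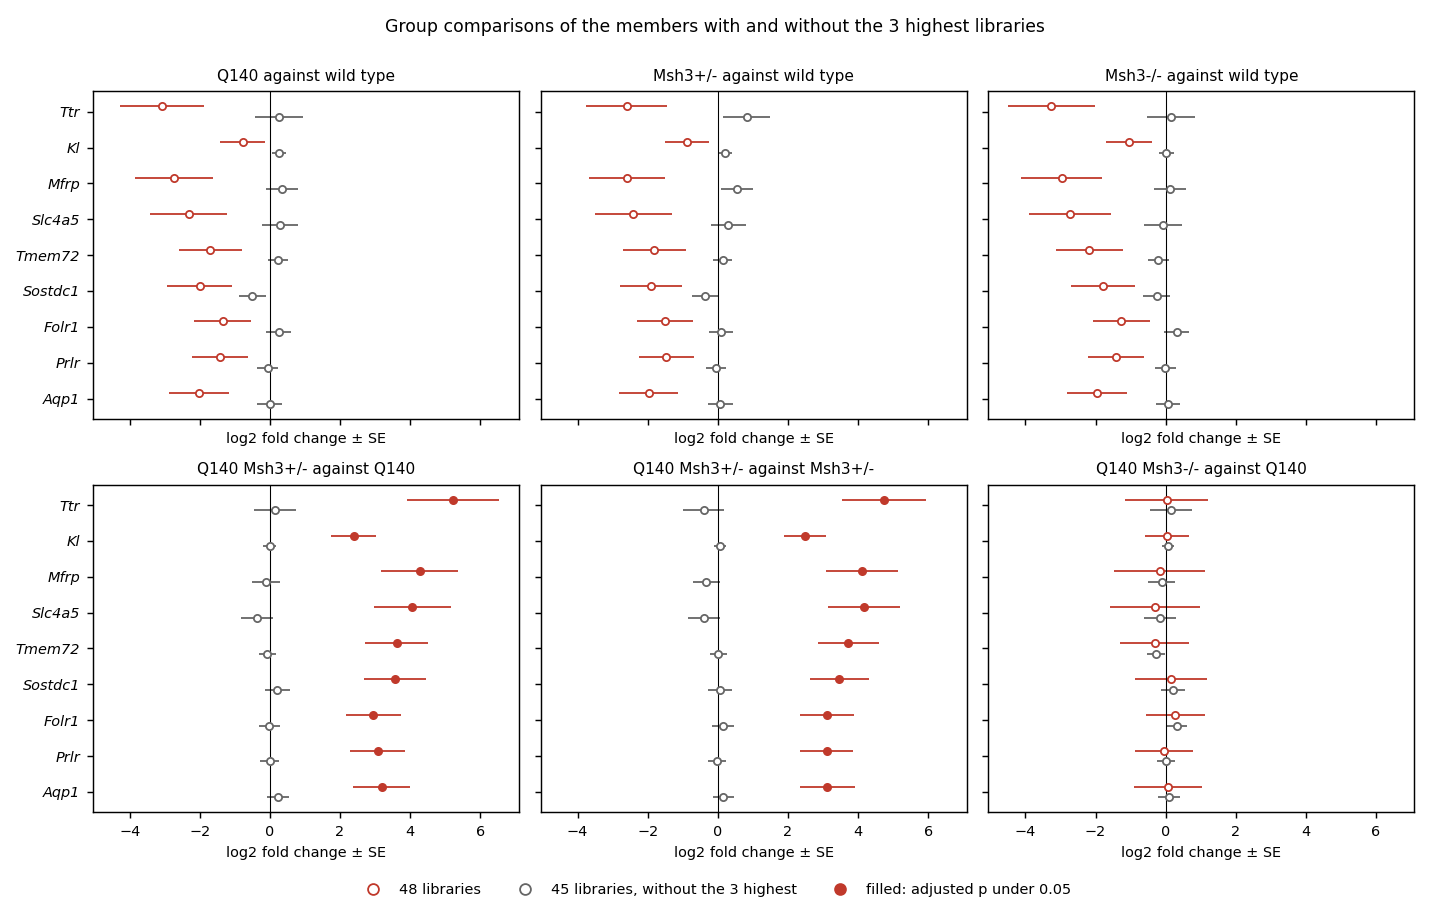
Log2 fold change ± SE of each of the 9 genes in 6 comparisons, from the fit on 48 libraries (red) and on 45 libraries without the 3 highest (grey); filled points have an adjusted p under 0.05. All 9 genes are filled in the 2 comparisons of Q140 Msh3+/- with 48 libraries, and none with 45.

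With the 3 libraries left out, a choice made after the values were seen, none of the 9 genes was called or had an unadjusted p under 0.05 in any of the 7 comparisons and 2 interactions, edgeR being the one tool run. Over the 7 comparisons the medians of the 9 ran from -0.01 in Q140 Msh3+/- against Q140 to 0.25 in Q140 against wild type, and single genes ran from -0.51 (Sostdc1 in Q140 against wild type) to 0.82 (Ttr in Msh3+/- against wild type).

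The effect of the 3 libraries reached beyond the 9 genes. In Q140 Msh3+/- against Q140, 44 genes moved by over 1 on the log2 scale when they were left out, all upward with them in, among them the 9 and 15 of the 21 other choroid plexus genes. In Q140 against wild type 17 genes moved so far, all downward, among them the 9 and 7 other choroid plexus genes. Of the genes called with a log2 change of at least 1 in either direction, 28 of 32 were lost in Q140 Msh3+/- against Q140, 36 of 59 in Q140 Msh3+/- against Msh3+/- and 17 of 140 in Q140 against wild type. The count of all genes called went from 395 to 104 in the first, with 101 in both, from 1289 to 1201 in the second, with 1060 in both, and from 3969 to 3230 in the third, with 3061 in both. Losses of like size in the first came with 1 library that is not among the 3 left out: 73 genes were called without Q140 F1, 91 without Q140 M1, 113 without Q140 F2 and 104 without Q140 Msh3+/- M4, against 123 without Q140 Msh3+/- F1.

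Genes that choroid plexus shares with striatal or glial cells mix both sources in one value. Enpp2, which makes lysophosphatidic acid and is also an oligodendrocyte gene, read 2121 CPM in Q140 Msh3+/- F1, 436 CPM in wild type M2 and 261 CPM in wild type M1, against 161 to 252 CPM in the other 45. Igfbp2, a binding protein of insulin-like growth factors, read 60.8, 12.9 and 6.77 CPM, against 3.10 to 6.20 CPM. Trpm3, a cation channel, read 213 CPM in Q140 Msh3+/- F1 against at most 58.3 CPM, and Ace, the angiotensin-converting enzyme, 159 CPM against at most 71.5 CPM. Cab39l, a kinase scaffold, read 54.5 CPM there against at most 24.7 CPM, the sodium potassium chloride cotransporter Slc12a2 171 CPM against at most 130 CPM and the protease inhibitor Spint2 22.5 CPM against at most 17.1 CPM. The serotonin receptor Htr2c (101 CPM), the chaperone Clu (671 CPM) and the sodium pump subunit Atp1b1 (949 CPM) were within the range of the other 45 in that library.

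In Q140 Msh3+/- against Q140, Ace (0.64, adjusted p = 0.0418) and Igfbp2 (1.39, adjusted p = 0.0477) were called higher among these 10 genes, and neither without the 3 libraries (0.30, adjusted p = 0.158, and 0.24, adjusted p = 0.369). In Q140 Msh3+/- against Msh3+/-, Htr2c, Igfbp2, Enpp2 and Spint2 were called higher, and without the 3 libraries Htr2c alone was (0.45 and 0.42). In Q140 against wild type, with 19.9% of all genes called, Htr2c (0.64), Spint2 (0.31) and Atp1b1 (0.11) rose and Ace (-0.63) and Clu (-0.18) fell. Each was also called without the 3 libraries, at 0.68, 0.41, 0.12, -0.61 and -0.18.

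The lists of neighbouring tissue were set against the same comparisons. Of the 21 other choroid plexus genes, 6 were called higher in Q140 Msh3+/- against Q140, among them Kcnj13 (5.21), F5 (3.23) and Car12 (0.50). In Q140 Msh3+/- against Msh3+/-, 12 were called higher. Without the 3 libraries none was called higher in either. In the first, Kcnj13 was then at 0.69 and F5 at 0.19, while Car12 stayed at 0.39 (adjusted p = 0.0748). In the second, Car12 was then called lower (-0.39, adjusted p = 0.0203). In Q140 against wild type Kcnj13 (-3.70, adjusted p = 0.0453) and Car12 (-0.73, adjusted p = 2.24e-05) fell, and without the 3 libraries Car12 alone was called (-0.65), Kcnj13 being at -0.29. Igf2 of the leptomeninges list was called in Q140 Msh3+/- against Q140 (1.26, adjusted p = 0.0418), though not without the 3 libraries (0.29, adjusted p = 0.33). No ependyma gene was called there by edgeR, with 1 of 15 at an unadjusted p under 0.05, Spag16 (0.73, adjusted p = 0.303). No gene of cortex, thalamus and habenula, subventricular zone, septum and pallidum, hippocampus or blood was called there by edgeR either, with 1, 3, 1, 0, 0 and 0 at an unadjusted p under 0.05. Over all genes, 3217 of 19975 had an unadjusted p under 0.05 in that comparison. The lowest adjusted p among the genes of these 6 lists belonged to Cux2 of cortex (-0.28, adjusted p = 0.104). In Q140 against wild type, 19.9% of all genes were called. Called genes of these lists were 1110017D15Rik (0.61) and Meig1 (0.58), 2 of 15 tested of ependyma, and Dcn (-0.41), 1 of 12 of leptomeninges. Also called were Cux2 (0.37), 1 of 11 of cortex, and Tnnt1 (-0.58) and Ramp3 (0.44), 2 of 8 of thalamus and habenula. The others were Fibcd1 (-0.36), 1 of 7 of hippocampus, and Sox11 (0.82), 1 of 8 of subventricular zone. Each of these was also called without the 3 libraries. No septum and pallidum or blood gene was called by edgeR, with 1 at an unadjusted p under 0.05 in each, Gbx1 (-0.34) and Hbb-bt (-1.78). Over all genes, 6365 of 19975 had an unadjusted p under 0.05 in Q140 against wild type. By contrast, 8 of 15 medium spiny neuron genes were called higher in Q140 Msh3+/- against Q140 with the 3 libraries and 8 without them (Adcy5 at 0.29 and 0.27), with medians of 0.24 and 0.25.

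With the mean of the 21 other choroid plexus genes as a covariate, none of the 9 was called in any of the 7 comparisons. Ttr differed by -0.15 in Q140 Msh3+/- against Q140 and -0.62 in Q140 against wild type. That covariate had r = 0.961 with the mean of the 9 over 48 libraries, and the same 3 libraries ranked 1, 2 and 3 in it. A term so close to the 9 genes takes out their differences whatever the source, so this fit cannot tell sources apart. The ependyma mean had r = 0.195 with that of the 9. With the ependyma mean as a covariate, Ttr still differed by 4.22 in Q140 Msh3+/- against Q140 (adjusted p = 0.0862, none of the 9 called), and 4 of the 9 were called lower in Q140 than in wild type, where 18.2% of all genes were called (Ttr -3.46, adjusted p = 0.0413).

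Well addresses place the libraries on a plate, and Q140 Msh3+/- F1 was in row D and column 4. In the 8 libraries of wells adjoining it, Ttr ran from 6.52 through a median of 18.4 to 44.6 CPM. In the 37 other libraries of the 45, Ttr ran from 2.23 through a median of 8.90 to 52.0 CPM. The ranges overlapped, and the part of well position in the lower levels of the 9 genes was not tested.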

How the data were processed

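RNA was extracted with RNeasy and made into stranded TruSeq libraries, per the labels. The deposited count table holds the authors' whole reads per gene. The submitters' processing notes name STAR 2.7.5c, SAMtools 1.10, HTSeq 0.12.3, GRCm38 and mm10; the annotation used for counting is not given in the sources used here. The deposited FPKM table holds values that the authors scaled for gene length and library size.

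The count model was edgeR 4.0.16 (R 4.3.3) on 48 libraries: filterByExpr by group with a minimum count of 10 and a minimum total of 15, TMM scaling, robust glmQLFit with sex as covariate, two-sided glmQLFTest, and Benjamini-Hochberg adjustment over 19975 genes at a threshold of 0.05. CPM used TMM-scaled library sizes, and log2 CPM a prior count of 2. Outside 3 libraries, 6 of the 9 genes had 1 to 45 counts each, which limits their precision. Gene positions are from the GENCODE annotation of GRCm38. The code was tested on simulated data.

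The 9 genes, the lists and the tests were chosen with earlier results of these data known. Named genes were the 9, the 12 most and 3 least correlated with their mean, the genes shared with striatal or glial cells, Msh3, and a few genes of the other lists, called ones first in order of p. Those named as examples of library levels (F5, Igf2, Kcnj13, Otx2, Ccdc153, Tmem212) were picked from these lists after their values were seen. Alternatives were RLE scaling, DESeq2 1.42.0, other count filters, no robust step, no sex term, a fit of the compared groups alone, a term for replicate number, plate column, plate row, other choroid plexus genes or ependyma, and limma 3.58.1 on log2 FPKM (offset 0.1 or 1). Each library was left out in turn.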

Additional observations from a re-analysis of the deposited data

Results flagged for a closer look

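In a group of 7 to 9 libraries, the gap between the highest library and the next was divided by the range of the group, and values above the 95% critical value of Dixon's test are listed here. Chance flags about 1 in 20 groups of genes not chosen by their values. The 9 genes were chosen by these same levels and are not independent within a library, so the 17 flags of 54 are a description and are not set against chance. They fall on 3 libraries.

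Q140 Msh3+/- F1 was flagged for all 9 genes. The gap took a share of 0.991 of the range for Ttr, 0.986 for Kl, 0.995 for Mfrp, 0.992 for Slc4a5, 0.991 for Tmem72, 0.991 for Sostdc1, 0.984 for Folr1, 0.983 for Prlr and 0.976 for Aqp1. Wild type M2 was flagged for 6 genes, at 0.616 for Ttr, 0.643 for Mfrp, 0.618 for Slc4a5, 0.610 for Sostdc1, 0.628 for Folr1 and 0.578 for Aqp1, with wild type M1 next below it. Q140 Msh3-/- F2, which is not one of the 3 highest libraries of the 48, was flagged for Mfrp (0.587) and Slc4a5 (0.748), and its Ttr level of 33.8 CPM was also the highest of its group.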

How the results depend on the processing

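The 9 calls in Q140 Msh3+/- against Q140 fell to 3 without a count filter, where 0.6% of all genes were called. The calls fell to 2 with a filter of 1 CPM in 24 libraries (3.17% of all genes called), leaving 2 of the 9 tested. They fell to 0 with the compared groups alone, plate column, plate row, other choroid plexus genes or ependyma as a term, limma at either offset, or without the 3 highest libraries. Against Msh3+/-, the 9 calls fell to 2 of 2 with that CPM filter (8.85% of all genes called). They fell to 0 under the same other settings. In Q140 against wild type the count of 0 became 1 without the robust step, 4 with ependyma and 3 with DESeq2. Those fits called 20%, 18.2% and 21% of all genes. For the interaction of Q140 with Msh3+/- the count became 9 with DESeq2, where 0.0951% of all genes were called. With the replicate block, none was called in either comparison of Q140 Msh3+/-, with medians of 2.06 and 2.04. The numbers did not pair the libraries: of 115 same-numbered pairs, 10 correlated over 0.1 (median -0.0325), and 4 of 48 libraries correlated best with their own number.

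In Q140 Msh3+/- against Q140, values below 0 with other choroid plexus genes as a term were -0.15 (Ttr), -0.031 (Kl), -0.38 (Mfrp), -0.52 (Slc4a5), -0.13 (Tmem72), -0.14 (Folr1) and -0.0055 (Prlr). Without the 3 libraries they were -0.0081 (Kl), -0.12 (Mfrp), -0.37 (Slc4a5), -0.074 (Tmem72), -0.017 (Folr1) and -0.0095 (Prlr). Against Msh3+/-, they were -0.57 (Ttr), -0.50 (Mfrp), -0.57 (Slc4a5), -0.076 (Tmem72), -0.10 (Prlr) and -0.030 (Aqp1) with that term, and -0.40 (Ttr), -0.33 (Mfrp), -0.39 (Slc4a5) and -0.015 (Prlr) without the 3 libraries.

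When each of the 48 libraries was left out in turn, the genes called ranged from 0 to 9 in Q140 Msh3+/- against Q140 and against Msh3+/-, from 0 to 8 in Q140 against wild type and from 0 to 2 in the interaction of Q140 with Msh3+/- (2 without Q140 M4), and were 0 in the other comparisons. In Q140 Msh3+/- against Q140 the values ranged from -0.020 to 2.60 (Kl), -0.17 to 4.60 (Mfrp), -0.39 to 4.52 (Slc4a5), -0.089 to 3.91 (Tmem72), -0.073 to 3.18 (Folr1) and -0.036 to 3.33 (Prlr). Against Msh3+/- they ranged from -0.45 to 5.12 (Ttr), -0.41 to 4.41 (Mfrp), -0.49 to 4.46 (Slc4a5), -0.0054 to 4.01 (Tmem72) and -0.055 to 3.35 (Prlr). The lowest value was in each case that without Q140 Msh3+/- F1. Over all genes, the 395 called in Q140 Msh3+/- against Q140 ranged from 73 to 992 and the 478 of the interaction with Msh3-/- from 262 to 935, the highest without Q140 M4 in both.

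The median r over pairs of genes was 0.599 without the 2 farthest libraries, 0.467 without the 3 highest and 0.932 on log2(FPKM + 0.1), and the median rho was 0.508. Within groups the median r was 0.947 in wild type and 0.974 in Q140 Msh3+/-, which hold the 3 highest libraries. It was 0.460 in Q140, 0.723 in Msh3+/-, -0.178 in Msh3-/- and 0.522 in Q140 Msh3-/-. Leaving out the 3 highest libraries, or wild type M1 and M2, was chosen after seeing the data. Apart from the settings that changed the model by construction (fewer genes or libraries), the cause of each change was not tested. The low counts of 6 genes, the 7 to 9 libraries a group and the lack of a record of the dissection in the labels limit what the comparisons can show.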
